A study of Caenorhabditis elegans with 20 samples.

Results

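The genes of translation initiation and elongation were described in RNA-seq of C. elegans L3 larvae. They were taken by name: the reference gene table (WBcel235) gives 39 genes a symbol that starts with eif-, eef-, ife-, ifg- or iff-, and 37 of them had a row among the 15568 genes of the processed table. All 37 passed the filter on low values that left 9679 genes for testing. The other two, eef-1B.2 and ife-1, were not analysed here.

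Translation begins when eIF2, a GTP-binding trimer, brings the initiator tRNA to the small ribosomal subunit, where eIF1, eIF1A and the large eIF3 scaffold hold the subunit ready for the mRNA. The eIF4E cap-binding proteins (ife genes) and the eIF4G scaffold (ifg-1) bring in the mRNA, and eIF2B recharges eIF2 with GTP, the step that eIF2 kinases shut down under stress. During elongation eEF1A delivers the charged tRNAs, eEF1B reloads eEF1A with GTP, eEF2 moves the ribosome along, and eIF5A (iff genes), which carries the modified amino acid hypusine, relieves stalls.

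The study asked how the DREAM complex, a repressor of cell cycle genes, and the histone variant HTZ-1/H2A.Z act on gene expression. Whole L3 larvae grown at 20°C in liquid culture were compared in 3 genotypes with 2 libraries each: wild type (strain N2), lin-35(n745) (strain JA1507), which lacks the Rb-like pocket protein of DREAM, and htz-1(ok3099), a mutant of the H2A.Z gene that the study treats as a partial loss, since the mothers' gene product remains. The htz-1 homozygotes were sorted as non-GFP larvae on a COPAS worm sorter from a culture balanced with nT1[qIs51] (strain VC2490 in the labels, VC2480 in the methods), so they descend from heterozygous mothers. For N2 and lin-35 the labels describe a sucrose gradient and no sorting, so sorting and genotype cannot be told apart in any comparison with htz-1. The sample names of N2 and lin-35 libraries with the same replicate number also share a number, and those of the htz-1 libraries hold others. Its meaning is not stated, and if it marks a batch, that batch and the htz-1 genotype cannot be told apart either. Whether the paired libraries came from separate cultures is not stated, and p-values then measure only the spread between these libraries.

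The values are RPKM, reads scaled to the length of the gene model and to library depth. Comparisons of level between genes thus rest on these lengths. The totals behind the RPKM lay between 13604791 and 18301926 reads, and every member had at least 44 reads in every library. Before testing, each library was divided by a size factor (0.949 to 0.982 in N2 and htz-1, 1.11 and 1.07 in lin-35), which is why a gene with equal deposited RPKM in lin-35 and N2 has a fold change slightly below 0 on the log2 scale. Without this step the median of all genes tested was 0.15 in lin-35, against -0.01 with it. N2 held 12.1 and 11.1 RPKM of the lin-35 transcript and the lin-35 libraries held 12.8 and 13.3, so its level does not check that label. Of the htz-1 transcript N2 held 78.5 and 81.3 RPKM and the htz-1 libraries 65.6 and 27.8, a log2 fold change of -0.90 that did not pass the test (limma, adjusted p = 0.076). One htz-1 library was thus close to N2, and the level does not check this label either. Of the marker genes of larval tissues, 5 of 10 germ cell genes rose in lin-35 and 4 of 10 in htz-1, with summed levels of 258 and 279 RPKM in N2, 846 and 892 in lin-35, with 306 and 372 in htz-1. The rise in lin-35 lay with pgl-3, him-3, syp-1, pgl-1 and glh-1, and the other 5 had log2 fold changes from -0.33 to -0.19 there and did not pass. None of these 10 was at 0 in any library. Body wall muscle genes (unc-54, myo-3, unc-15) summed to 1723 and 1853 RPKM in N2, 1187 and 1424 in lin-35 versus 1649 and 1723 in htz-1, and 2 of 3 fell in lin-35. Of 3 intestine genes tested, elt-2 and ges-1 rose and vha-6 fell in lin-35, and 0 passed in htz-1. Of 5 neuron genes, 1 rose and 1 fell in each mutant. Of 2 epidermis genes tested, lin-26 rose in both mutants (0.67 in lin-35 and 1.23 in htz-1), and elt-1 passed in neither. In RNA of whole larvae, fewer cells of a type and less RNA per cell cannot be told apart.

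In N2 the 5 elongation factor genes were among the 6 most abundant members. The eEF1A gene eef-1A.1 was the most abundant of the 15568 genes in both N2 libraries, at 4450 and 4741 RPKM, and the eEF2 gene eef-2 followed among the members at 1563 and 1651. The eEF1B gamma subunit gene eef-1G (mean 958 RPKM), eef-1B.1 (mean 835), iff-2 (mean 718), eef-1A.2 (mean 467) and the eIF1A gene eif-1.A (mean 431) completed the 7 members above 300 RPKM. The median member lay at 94.0 RPKM, against 12.4 for all genes tested, and 8 members lay below 30: ife-5, ife-4, eif-2D and the 5 subunit genes of eIF2B. Subunit genes of eIF2 lay between 142 and 163 RPKM over both N2 libraries and the 5 of eIF2B between 15.7 and 27.0, while the 11 eIF3 genes spread more widely, from 45.9 to 158. Of the 36 neighbouring pairs in the order of N2 levels, 13 had overlapping library values, most of them among the eIF2 and eIF3 genes, while the genes in the first 8 places did not overlap with their neighbours in that order.

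**Figure D1:**
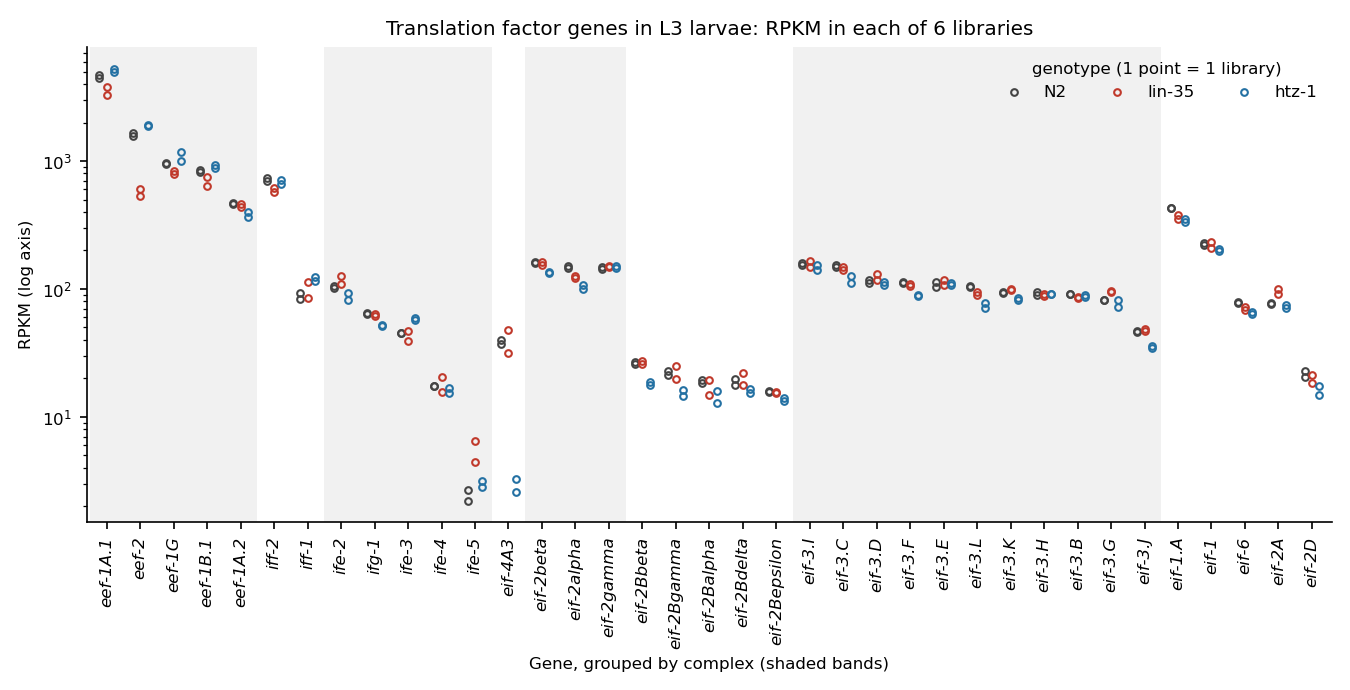
RPKM (log axis) of the 37 translation factor genes in each of 6 libraries, grouped by complex, with 1 open point for each library of N2, lin-35 and htz-1. Elongation factor genes sit between 368 and 5285 RPKM in every library, eIF2B genes between 12.8 and 27.4, and eif-4A3 drops to 3.25 and 2.58 in htz-1.

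Together the members took 3.39% and 3.51% of the reads counted in the 15568 genes in N2, 2.50% and 2.67% in lin-35, with 3.65% and 3.83% in htz-1. The lin-35 libraries were thus the lowest and the groups did not overlap. The difference lay with the elongation factors, which took 2.65% and 2.78% of these reads in N2, 1.77% and 1.95% in lin-35 versus 2.99% and 3.17% in htz-1. The initiation genes, with iff-1 and iff-2, took 0.733% and 0.727% in N2, 0.728% and 0.714% in lin-35, with 0.664% and 0.668% in htz-1.

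The comparison of lin-35 with N2 asked how loss of the DREAM pocket protein changed these genes. Of 37 members, 11 were lower and 1 was higher (limma, adjusted p below 0.05), where 11.6% of all genes tested were called lower and 12.1% higher. The members' median log2 fold change was -0.20, against -0.01 for all genes. All 5 elongation factor genes fell (eef-1A.1, eef-1A.2, eef-1B.1, eef-1G, eef-2), as did iff-2, the eIF2 alpha gene eif-2alpha, the eIF3 genes eif-3.B and eif-3.L, eif-1.A and eif-6, which encodes the factor that keeps free large subunits from joining. The single gene that rose was ife-5. The count rests on the scaling: with the RPKM as deposited 4 members were lower and 2 higher (592 and 1781 of all genes). With quantile normalization 1 was lower, eef-2, and 0 were higher (948 and 1022 of all genes). Without N2 replicate 1 or without N2 replicate 2 the count of lower members was 3, and without lin-35 replicate 1 it was 6.

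**Figure D2:**
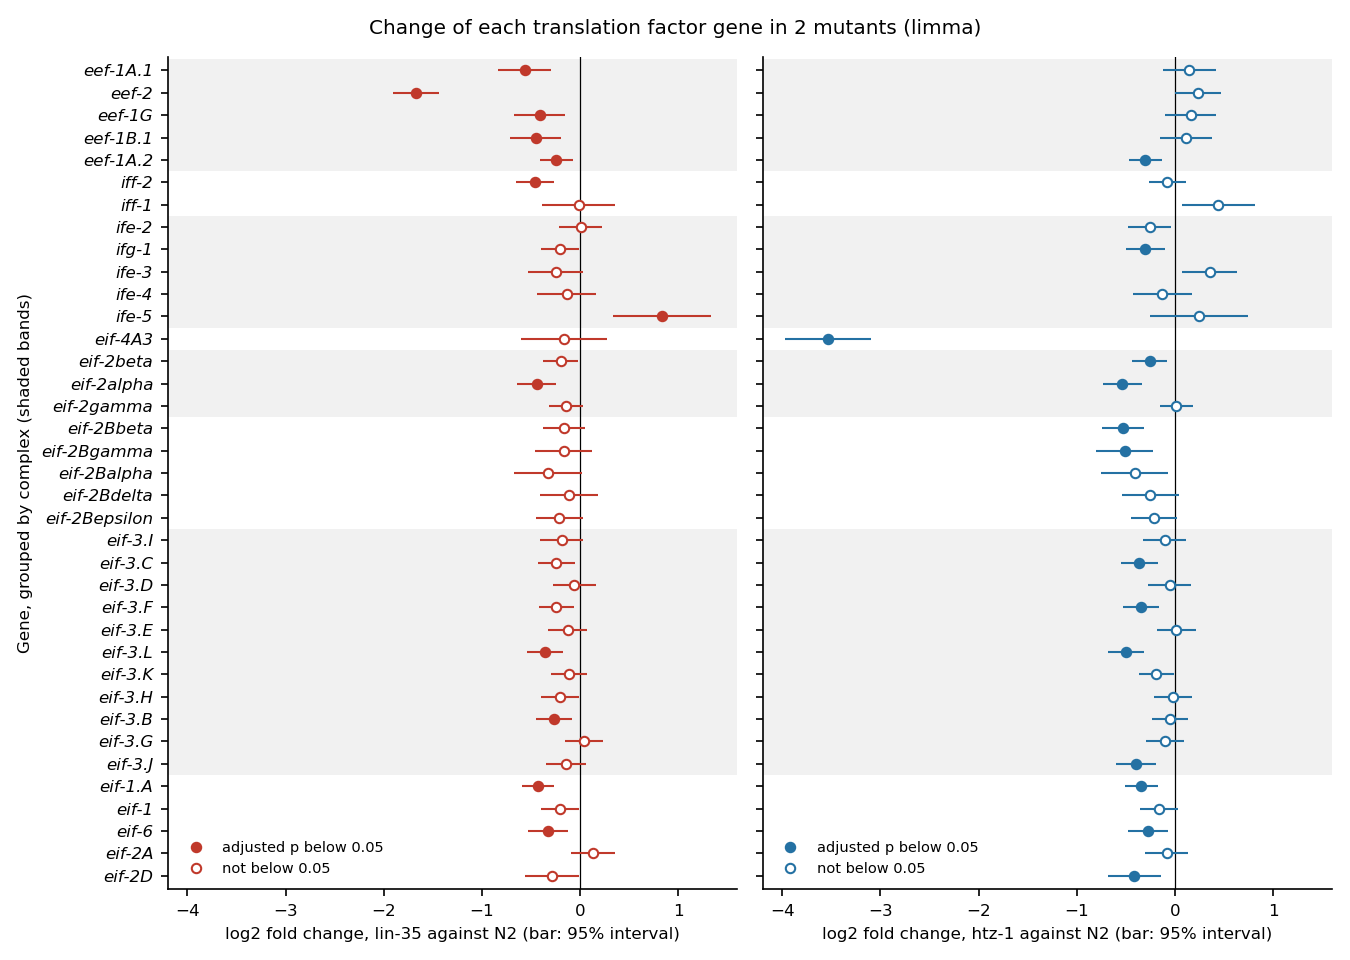
Log2 fold change of each of the 37 genes in lin-35 (left) and htz-1 (right) against N2, with its 95% interval, filled where limma's adjusted p was below 0.05. The largest changes are eef-2 in lin-35 (-1.67) and eif-4A3 in htz-1 (-3.53).

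The deepest fall in lin-35 was that of eef-2, the translocation factor. It was at 1563 and 1651 RPKM in N2, 535 and 607 in lin-35 versus 1909 and 1891 in htz-1. Both lin-35 libraries lay far under all the others. It fell by 1.67 on the log2 scale (SE 0.10, 95% interval -1.91 to -1.44), or 3.19-fold, with an adjusted p of 0.000112, and it passed under all 15 alternatives, from -1.79 to -1.29. In htz-1 the value was 0.23 (adjusted p = 0.11, 95% interval 0.00 to 0.47). Of the 109 genes tested with at least 50 percent of its mean level over the 6 libraries, eef-2 alone fell this far, and their median in lin-35 was -0.36. Among all genes tested 50 were at or below its change. In order of RPKM among all genes of a library it was at place 37 and 36 in N2, 123 and 109 in lin-35, with 26 and 27 in htz-1.

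The change of eef-2 exceeded that of eef-1A.1 within the same libraries, a ratio that a single scaling factor per library cannot alter. The ratio of eef-2 to eef-1A.1 in RPKM was 0.351 and 0.348 in N2, 0.164 and 0.160 in lin-35 versus 0.386 and 0.358 in htz-1. It was lower in both lin-35 libraries than in the other four. The genes on either side of eef-2 in the order of the reference table, chosen after their values were seen, did not show a fall of this size. The neighbour clsp-1, a claspin gene of the replication checkpoint, rose from 10.5 and 11.8 RPKM in N2 to 27.3 and 26.8 in lin-35, and the next on the other side, pyk-1, a pyruvate kinase gene, fell by 0.36 on the log2 scale in lin-35 (adjusted p = 0.036) and by 0.33 in htz-1 (adjusted p = 0.041).

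The genes that encode eEF1A differed in level and in how they behaved. The abundant eef-1A.1 was at 4450 and 4741 RPKM in N2, 3256 and 3798 in lin-35, with 4940 and 5285 in htz-1, so that the lin-35 libraries were the lowest and the groups did not overlap. Its log2 fold change was -0.57 in lin-35 (SE 0.11, adjusted p = 0.012) and 0.15 in htz-1 (adjusted p = 0.37), and the call in lin-35 was lost with quantile normalization (-0.20), without a filter and without N2 replicate 2. The less abundant eef-1A.2 was at 471 and 463 RPKM in N2, 461 and 434 in lin-35 versus 396 and 368 in htz-1. Here the htz-1 libraries were the lowest, and the log2 fold change was -0.30 in htz-1 (SE 0.07, adjusted p = 0.018) and -0.24 in lin-35 (adjusted p = 0.046). The lin-35 call for eef-1A.2 held in 4 of 15 alternatives and its sign turned with quantile normalization (0.20). The ratio of eef-1A.2 to eef-1A.1 was 0.106 and 0.0976 in N2, 0.142 and 0.114 in lin-35, with 0.0801 and 0.0696 in htz-1, 3 groups that did not overlap. The gene model of eef-1A.2 holds 5834 bases and that of eef-1A.1 1907. In N2 eef-1A.2 had 50321 and 40789 reads against 155328 and 136596 of eef-1A.1. The size of their difference in RPKM thus rests in part on these lengths. The share of reads that the counting could assign to the wrong copy of these similar genes was not tested.

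The exchange factor genes eef-1B.1 and eef-1G followed eef-1A.1. In lin-35 eef-1B.1 had a log2 fold change of -0.45 (adjusted p = 0.025) and eef-1G of -0.41 (adjusted p = 0.034), each a call that held in 8 of 15 alternatives, and eef-1G turned to 0.057 with quantile normalization. In htz-1 the values were 0.11 and 0.16 (adjusted p = 0.48 and 0.30). Among body wall muscle and ribosomal protein genes the same direction was measured in lin-35: 38 of 59 cytosolic ribosomal protein genes tested were lower and 0 higher (0 also at an unadjusted p below 0.05), with a median of -0.30, while in htz-1 2 were lower and 5 higher, with a median of 0.02.

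**Figure D3:**
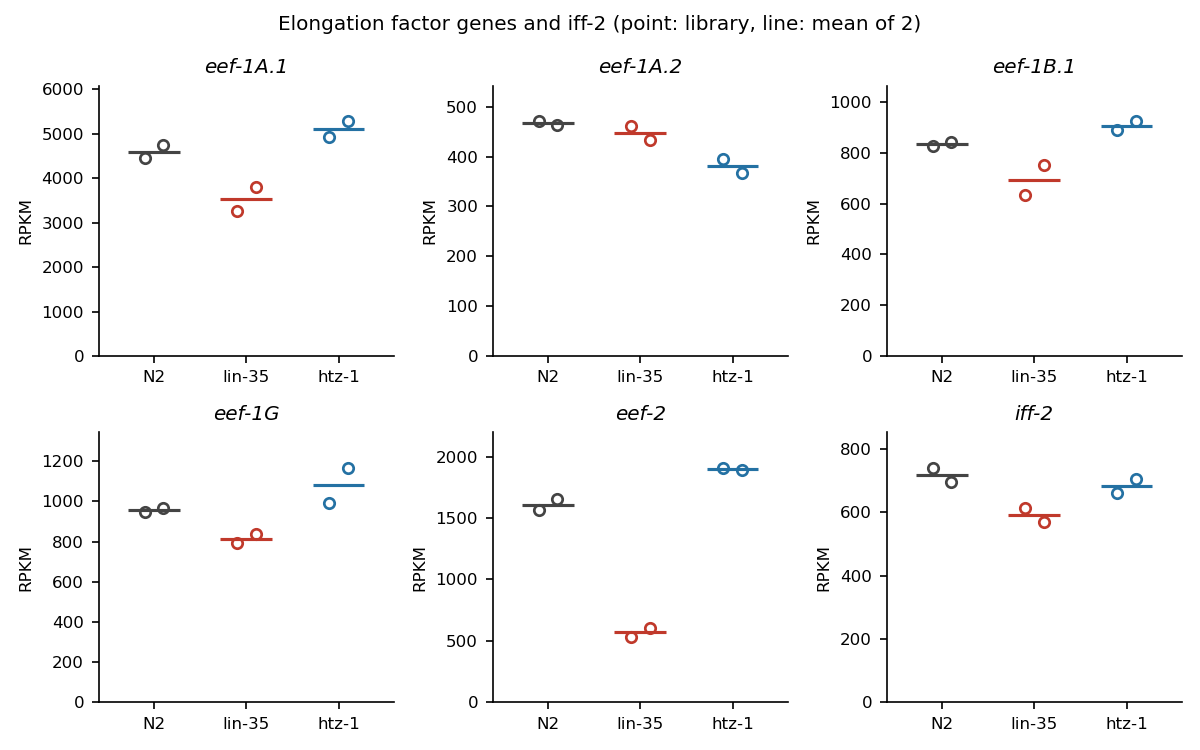
RPKM of the 5 elongation factor genes and iff-2 in each library (points) with the mean of 2 libraries (line), on linear axes that start at 0. In lin-35 eef-2 is at 535 and 607 RPKM against 1563 and 1651 in N2, while eef-1A.2 is lowest in htz-1 at 396 and 368.

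In lin-35 the calls followed the level of a gene. Of the 174 genes tested with a mean of at least 400 RPKM over the 6 libraries, 72.4% were lower in lin-35, with a median of -0.39, and all 6 members among them were lower (median -0.46). Between 100 and 400 RPKM 41.7% of 557 genes were lower, and 2 of 12 members. Between 10 and 100 RPKM it was 12.9% of 4994 genes, and 3 of 18 members. In lin-35 a lower call was thus most frequent among the most abundant genes, members or not. In htz-1 the same classes held 13.8%, 26.4% and 20.1% of lower genes, against 1 of 6, 5 of 12 and 8 of 18 members.

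**Figure D4:**
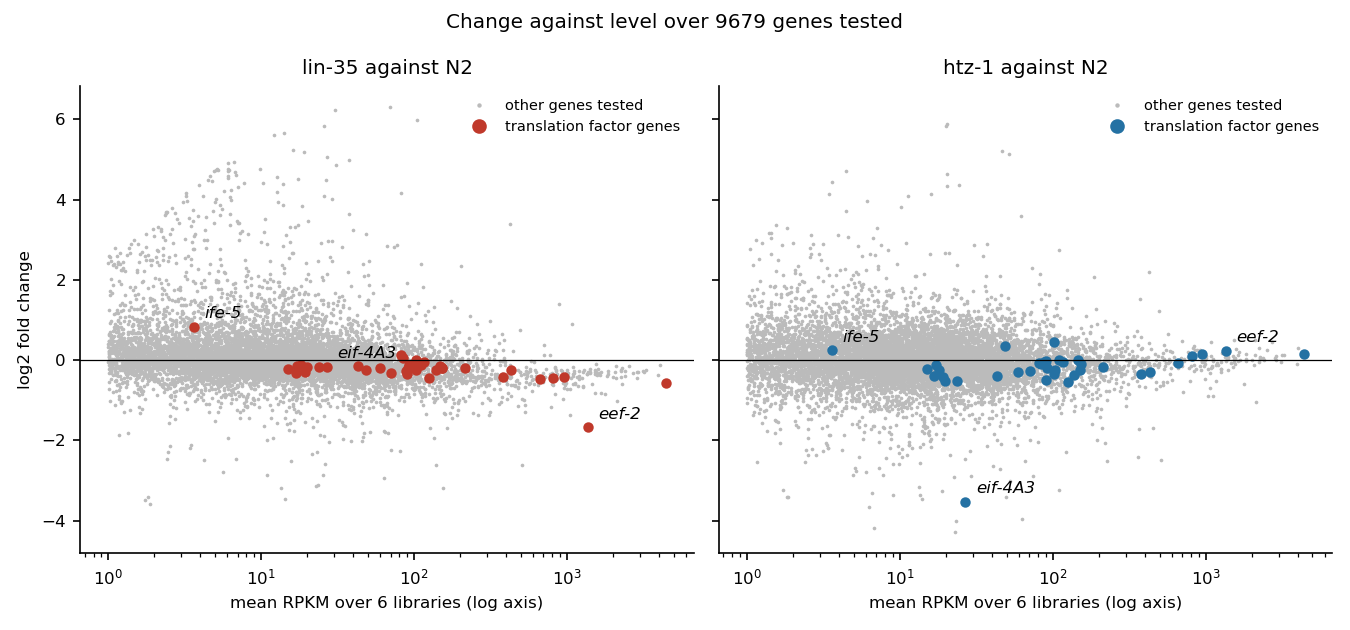
Log2 fold change against the mean RPKM over 6 libraries (log axis) for all 9679 genes tested (grey) and the 37 translation factor genes (coloured), in lin-35 (left) and htz-1 (right). In lin-35 the most abundant genes lie mostly below 0 (median -0.39 at 400 RPKM and above) and eef-2 lies below them at -1.67.

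The comparison of htz-1 with N2 asked how the htz-1 mutation changed the same genes, and it used the same N2 libraries. Of 37 members, 14 were lower and 0 higher (limma, adjusted p below 0.05), where 16.5% of all genes tested were called lower and 15.2% higher. At an unadjusted p below 0.05 there were 3 higher members (eef-2, ife-3, iff-1), and limma-voom on the recovered reads called 1. The members' median log2 fold change was -0.19, against 0.00 for all genes. They were 1 of the 5 elongation factor genes and 13 of the 32 other members: eif-2alpha and eif-2beta of eIF2, eif-2Bbeta and eif-2Bgamma of eIF2B, eif-3.C, eif-3.F, eif-3.J and eif-3.L of eIF3, eif-1.A, eif-2D, eif-6, ifg-1, eif-4A3 and the elongation factor gene eef-1A.2. Except for eif-4A3 these falls were between 0.25 and 0.54 on the log2 scale. The count of lower members was 3 without N2 replicate 1, 4 without N2 replicate 2 and 4 without htz-1 replicate 2, and with quantile normalization or no variance trend it was 9.

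The gene with the largest change of all members was eif-4A3 in htz-1. It encodes a DEAD-box RNA helicase of the exon junction complex, which marks spliced mRNAs, and shares a fold and a name with the initiation helicase eIF4A. It was at 36.8 and 39.9 RPKM in N2 (846 and 756 reads), 47.4 and 31.5 in lin-35 (888 and 599 reads), with 3.25 and 2.58 in htz-1 (71 and 44 reads). The htz-1 libraries lay far below the other 4. It fell by 3.53 on the log2 scale (SE 0.19, 95% interval -3.97 to -3.09), or 11.6-fold, with an adjusted p of 0.000244, and it passed under all 15 alternatives, from -3.71 to -3.35. Only 6 genes tested, eif-4A3 included, were at or below this change in htz-1. In lin-35 the value was -0.17 (adjusted p = 0.57), with the lin-35 libraries on either side of N2.

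Neighbours of eif-4A3 in the order of the reference table, chosen after their values were seen, changed unequally in htz-1. The gene vps-20, which is next to it and encodes an ESCRT-III subunit of endosomal sorting, had 57.4 and 52.1 RPKM in N2 against 59.9 and 56.6 in htz-1. The Argonaute gene sago-2 and the gene Y65B4A.4 on the other side had log2 fold changes of -0.20 and 0.10. A gene 5 places away, Y65B4A.8, dropped from 10.8 and 10.3 RPKM in N2 to 2.04 and 1.83 in htz-1, a log2 fold change of -2.20. On the side of sago-2, hum-7 was 4 places away, with 10.6 and 12.6 RPKM in N2 against 5.05 and 5.30 in htz-1. Its log2 fold change was -1.10 (limma, adjusted p = 0.0041). The other tested neighbours, eme-1 and cus-2, had values of 0.37 and -0.44 and did not pass. None of the 11 genes listed for the exon junction complex and nonsense-mediated decay passed the limma test in either mutant. At an unadjusted p below 0.05 there were 0 higher and 1 lower in lin-35 and 2 higher and 1 lower in htz-1, and limma-voom on the recovered reads called 0 of the 11 in both. Among them mag-1 and rnp-4, whose products are core partners of eIF4A3, had log2 fold changes of 0.23 (adjusted p = 0.056) and -0.22 (adjusted p = 0.073) in htz-1. How many reads the counting could share between eif-4A3 and similar helicase genes was not tested. Members were taken by symbol, so whether a gene under another symbol also encodes eIF4A3 was not examined.

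Within eIF2 the subunits moved apart. The gene of the alpha subunit, the target of the eIF2 kinases, was at 152 and 146 RPKM in N2, 126 and 122 in lin-35 versus 99.1 and 107 in htz-1, and the 3 groups did not overlap. Its log2 fold change was -0.45 in lin-35 (SE 0.08, adjusted p = 0.0095) and -0.54 in htz-1 (SE 0.08, adjusted p = 0.0045), and the htz-1 call held under all 15 alternatives while the lin-35 call held in 11. The beta subunit gene eif-2beta fell by 0.25 in htz-1 (adjusted p = 0.041), and the GTP-binding gamma subunit gene eif-2gamma read -0.14 in lin-35 and 0.01 in htz-1 (adjusted p = 0.20 and 0.91). The ratio of eif-2alpha to eif-2gamma within a library was 1.03 and 1.03 in N2, 0.833 and 0.830 in lin-35, with 0.660 and 0.741 in htz-1, so that the order N2, lin-35, htz-1 held in every library.

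The 5 genes of eIF2B, the exchange factor of eIF2, all had negative log2 fold changes in both mutants after scaling. In lin-35 this shared sign rests on the scaling. In the RPKM as deposited, the lin-35 means of eif-2Bbeta, eif-2Bgamma and eif-2Bdelta were slightly above those of N2. Those of eif-2Balpha and eif-2Bepsilon were below N2. In lin-35 0 of 5 passed the limma test (0 also at an unadjusted p below 0.05 and with limma-voom), with values from -0.33 to -0.11. In htz-1 eif-2Bbeta fell by 0.53 (SE 0.09, adjusted p = 0.0060) and eif-2Bgamma by 0.51 (SE 0.12, adjusted p = 0.020), and the other 3 lay between -0.41 and -0.21. The summed level of the complex was 105 and 98.9 RPKM in N2, 109 and 93.3 in lin-35 versus 81.4 and 73.5 in htz-1, with both htz-1 libraries below the other 4.

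Of the 11 eIF3 genes, which build the scaffold on the small subunit, 2 were lower in lin-35 and 4 in htz-1, beside 11.6% and 16.5% of all genes tested. The member with the highest level, eif-3.I, did not pass in either mutant, at -0.19 and -0.10. The largest fall in both was that of eif-3.L, at 105 and 103 RPKM in N2, 95 and 88.9 in lin-35, with 77.5 and 70.6 in htz-1. It fell by 0.36 in lin-35 (SE 0.08, adjusted p = 0.017) and by 0.50 in htz-1 (SE 0.08, adjusted p = 0.0045), and its 3 groups did not overlap. The htz-1 call held under all 15 alternatives and the lin-35 call in 9. The ratio of eif-3.L to the subunit gene eif-3.E was 0.934 and 0.985 in N2, 0.805 and 0.829 in lin-35 versus 0.719 and 0.628 in htz-1. The least changed eIF3 genes lay at 0.04 in lin-35 (eif-3.G) and 0.01 in htz-1 (eif-3.E). The 11 genes leave out eIF3 genes under other symbols, such as egl-45. In the RPKM as deposited they summed to 1152 and 1150 in N2, 1154 and 1151 in lin-35, with 1048 and 996 in htz-1. After scaling 10 of the 11 were negative in lin-35, so this shared sign rests on the scaling. The lin-35 calls of eif-3.B and eif-3.L were lost with the RPKM as deposited.

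Of the remaining initiation genes, eif-1.A, which encodes the scanning factor eIF1A, was the most abundant and fell in both mutants, by 0.43 in lin-35 (adjusted p = 0.0050) and by 0.34 in htz-1 (adjusted p = 0.011). Its lin-35 call was lost with quantile normalization (-0.04), and held in 14 of 15 alternatives. The gene of eIF2D, which can deliver tRNA without eIF2 in mammals, fell by 0.41 in htz-1 (adjusted p = 0.032). The eIF2A gene eif-2A had a value of 0.13 in lin-35, which did not pass (adjusted p = 0.38).

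The genes of the eIF4E family did not move as a group. Biochemical work in C. elegans places IFE-2 and IFE-5 with the isoforms that also bind the trimethylated cap of trans-spliced mRNAs, and IFE-3 and IFE-4 with those that prefer the ordinary cap. The most abundant, ife-2, was at 101 and 106 RPKM in N2, 126 and 110 in lin-35 versus 93.6 and 81.2 in htz-1. Its log2 fold changes after scaling were 0.01 in lin-35 (adjusted p = 0.98) and -0.26 in htz-1 (adjusted p = 0.076). The gene ife-4 was at 17.4 RPKM in both N2 libraries, 20.3 and 15.7 in lin-35, with 16.8 and 15.3 in htz-1. It passed in neither mutant, at -0.14 and -0.13. The scaffold gene ifg-1 was at 63.6 and 64.6 RPKM in N2, 61.9 and 64 in lin-35 versus 52.6 and 51.7 in htz-1, and fell by 0.30 in htz-1 (SE 0.08, adjusted p = 0.032).

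The gene ife-3 separated the mutants. It was at 45.2 and 44.9 RPKM in N2, 39.0 and 47.0 in lin-35, with 59.7 and 56.6 in htz-1. Both htz-1 libraries lay above the other 4, while the lin-35 libraries lay on either side of N2. Against N2 neither value passed, at -0.25 in lin-35 (adjusted p = 0.18) and 0.36 in htz-1 (adjusted p = 0.058), and between the mutants the difference was -0.61 (SE 0.12, adjusted p = 0.010), a call that held under all 15 alternatives. The lowest member, ife-5, was at 2.67 and 2.21 RPKM in N2 (104 and 71 reads), 6.45 and 4.40 in lin-35 (205 and 142 reads), with 2.83 and 3.14 in htz-1 (105 and 91 reads). Both lin-35 libraries were above the other 4, by 0.83 on the log2 scale against N2 (SE 0.21, 95% interval 0.34 to 1.33, adjusted p = 0.028). This call was lost with quantile normalization and without a filter. Leaving out N2 replicate 1, N2 replicate 2 or lin-35 replicate 1 ended this call (0.94, 0.72 and 0.61), and in htz-1 the value was 0.25 (adjusted p = 0.41). The part that germ cells, whose markers are given above, had in these values was not tested.

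The eIF5A genes differed in level and in response. The abundant iff-2 was at 741 and 695 RPKM in N2, 615 and 570 in lin-35 versus 662 and 706 in htz-1, and both lin-35 libraries were the lowest. It fell by 0.46 in lin-35 (SE 0.08, adjusted p = 0.0071), a call lost with quantile normalization (-0.02) and without N2 replicate 1, and had a value of -0.08 in htz-1 (adjusted p = 0.50). Its paralog iff-1, known for its role in germ cell proliferation, was at 82.8 and 92.5 RPKM in N2, 85.1 and 113 in lin-35, with 116 and 124 in htz-1. The htz-1 libraries were above the other 4, but the value of 0.44 did not pass (SE 0.16, adjusted p = 0.071), and in lin-35 it was -0.02. The ratio of iff-1 to iff-2 was 0.112 and 0.133 in N2, 0.138 and 0.198 in lin-35 versus 0.175 and 0.176 in htz-1. Of the 37 members, 2 were on the study's list of L3 genes with every DREAM subunit at the promoter, ife-3 and iff-1. That list held 477 of the 9679 genes tested.

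**Figure D5:**
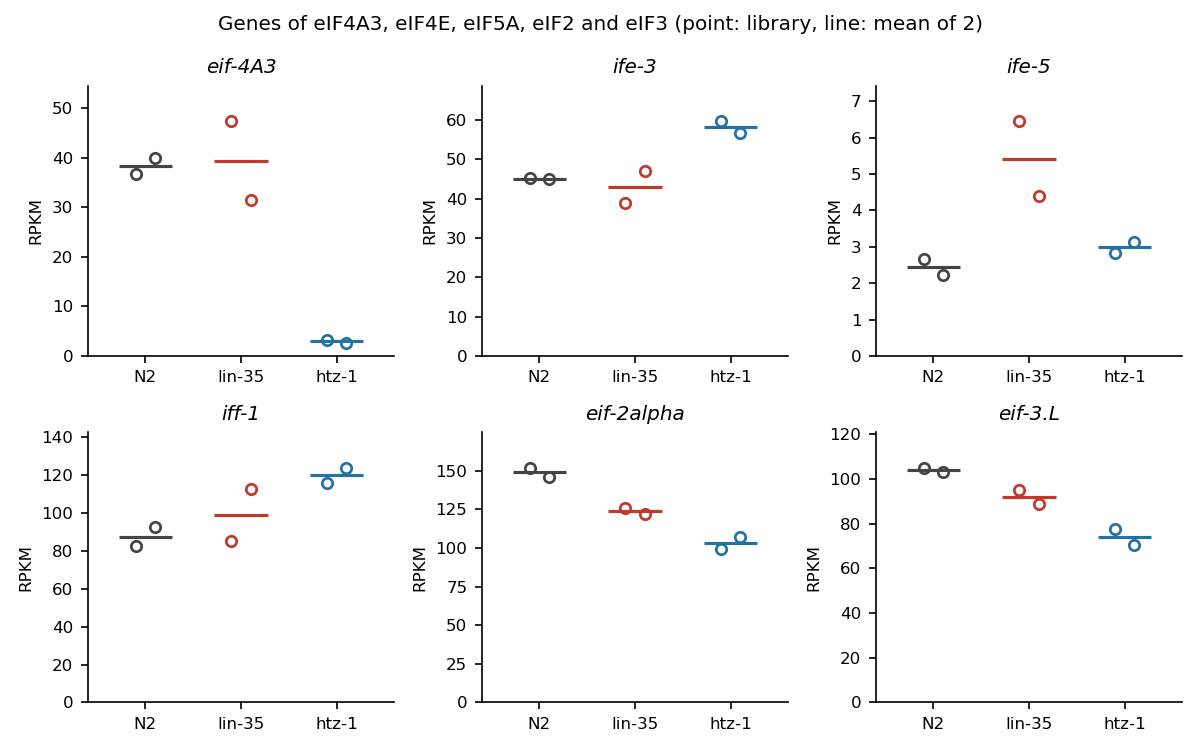
RPKM of eif-4A3, ife-3, ife-5, iff-1, eif-2alpha and eif-3.L in each library (points) with the mean of 2 libraries (line), on linear axes that start at 0. The htz-1 libraries hold 3.25 and 2.58 RPKM of eif-4A3, ife-5 is highest in lin-35 at 6.45 and 4.40, and eif-2alpha steps down from N2 to lin-35 to htz-1.

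The direct comparison of the mutants, in which the N2 libraries cancel out, asked which genes differed between them. Of 37 members, 2 were higher in lin-35 than in htz-1 and 6 were lower (limma, adjusted p below 0.05), where 15.3% of all genes tested were higher and 14.5% lower. The higher genes were eif-4A3 (3.36, SE 0.19, adjusted p = 9.36e-05) and eif-2Bbeta (0.37, adjusted p = 0.024). For eif-2Bbeta the call held in 8 of 15 alternatives. The lower ones were eef-2 (-1.91, SE 0.10, adjusted p = 7.56e-05), eef-1A.1 (-0.71, SE 0.11, adjusted p = 0.0051), ife-3 (-0.61), eef-1G (-0.57), eef-1B.1 (-0.57) and iff-2 (-0.38). With quantile normalization 5 members were higher and 2 lower, beside 13.3% and 15.6% of all genes. With the RPKM as deposited 15 were higher and 5 lower, beside 23.6% and 8.42% of all genes, at a median of all genes of 0.16. For eef-1A.2 the difference of 0.06 did not pass (95% interval -0.11 to 0.22).

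Other genes of the translation machinery were counted in lists, to be read beside the 11.6% lower and 12.1% higher of all genes in lin-35, and the 16.5% lower and 15.2% higher in htz-1. Of 7 tested initiation factor genes under other symbols, 2 were lower in lin-35 and 2 in htz-1. They were the eIF3 subunit gene egl-45 (-0.29 and -0.43), the poly(A)-binding protein gene pab-1 (-0.39 in lin-35) and cif-1 (-0.29 in htz-1). The 32 aminoacyl-tRNA synthetase genes tested held 8 lower and 0 higher in lin-35 (1 higher at an unadjusted p below 0.05) and 7 lower and 3 higher in htz-1, with medians of -0.24 and -0.16. Of 8 release and recycling factor genes, 2 were lower and 1 higher in lin-35, and 3 were lower in htz-1. The highest was abcf-2, an ABC ATPase gene, at 191 and 205 RPKM in N2 and 331 and 379 in lin-35 (0.66, adjusted p = 0.0044), and the lowest the ribosome rescue gene pelo-1 in htz-1 (-0.70, adjusted p = 0.0097).

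The mitochondrial counterparts that were tested had negative values in both mutants. Of 8 mitochondrial translation factor genes listed, 4 were tested. Of these 4, 4 were lower in lin-35 and 3 in htz-1, beside 11.6% and 16.5% of all genes tested. The mitochondrial elongation factor G gene gfm-1 was at 85.6 and 85.3 RPKM in N2, 42.1 and 46.5 in lin-35, with 66.4 and 61.3 in htz-1, with log2 fold changes of -1.12 and -0.43 (adjusted p = 0.00037 and 0.016). The mitochondrial EF-Tu gene tufm-1 fell by 0.97 in lin-35, and its value of -0.25 in htz-1 did not pass (limma, adjusted p = 0.051). Its paralog tufm-2 fell by 0.66 in lin-35 and by 0.88 in htz-1. All 4 lin-35 calls held with the RPKM as deposited and with quantile normalization.

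Genes that control the factors were counted in the same way. Their counts stand beside 11.6% lower and 12.1% higher of all genes in lin-35, and 16.5% lower and 15.2% higher in htz-1. Of 4 tested genes of the eIF2 and eEF2 kinases and stress control, 1 was higher and 2 were lower in htz-1. The transcription factor gene atf-4, which acts downstream of eIF2 phosphorylation, was at 58.3 and 64.1 RPKM in N2, 70.3 and 68.7 in lin-35 versus 98.0 and 110 in htz-1 (0.75 in htz-1, adjusted p = 0.0029). The eIF2 kinase gene pek-1 and the eEF2 kinase gene efk-1 fell by 0.66 and by 0.67 in htz-1. In lin-35 0 of the 4 passed limma, 0 at an unadjusted p below 0.05 and 0 with limma-voom. Of 13 TOR pathway genes, 3 were lower in lin-35 and 1 in htz-1, among them the TOR kinase gene let-363 (-0.45 and -0.36), and 2 were higher in htz-1, the AMP kinase gene aak-2 (0.62) and flcn-1 (0.42), which encodes folliculin. These lists were chosen with earlier results known, and their counts are descriptions.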

How the data were processed

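The deposited table holds RPKM for each of 6 libraries. As stated by the authors, reads were aligned to WS220/ce10 with BWA, assigned to exon models by HTSeq (union mode), and compared with DESeq2. The deposited log2 fold changes and p-values are the authors' own comparisons and were not used. The authors left out genes that oscillate during larval development. The ChIP-seq part of the series was left out.

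Each RPKM gave a whole number of reads within 0.002 reads for all 15568 genes (for 193, after multiplication by a shared factor), and these reads were used only for depth and for 1 alternative. Symbols came from the WBcel235 table (15397 names matched, 171 not), used for names and gene order only.

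The log2(RPKM + 0.5) values, after median-of-ratios scaling, were tested with limma 3.58.1 in R 4.3.3 with a variance trend over the 9679 genes with a mean of at least 1 RPKM, all 3 genotypes in 1 fit (residual degrees of freedom 3, prior 4.01). Tests were two-sided and called at a Benjamini-Hochberg adjusted p below 0.05. The adjusted p-values are this fit's own, not the authors'. The script was tested on simulated data. No 2 libraries of a group held equal values or agreed within sampling noise. RPKM depth intervals were not computed since the spread between libraries exceeded counting error.

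The members and lists were chosen with earlier results of these data known. Values in every library are given for members that passed with a log2 fold change of at least 0.58 in size and for paralogs, other members by range with up to 3 examples a complex. Values of eif-2alpha, eif-3.L, ifg-1 and atf-4 in every library, and the neighbours of eef-2 and eif-4A3, were added after seeing the data. The 15 alternatives comprised quantile normalization, the RPKM as deposited, pseudocounts of 0.1 and 1, no filter, a replicate block, no variance trend, only the 2 genotypes compared, limma-voom on recovered reads, and each library left out.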

Additional observations from a re-analysis of the deposited data

Results flagged for a closer look

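The results singled out here are the 8 members whose change differed between lin-35 and htz-1 by the direct contrast of the mutants in limma. They were 2 higher (5.41%) and 6 lower (16.2%) of 37 members, beside 15.3% higher and 14.5% lower of all genes tested. The count is thus no larger than for genes at large. Two-sided and adjusted over all genes tested, the difference lin-35 minus htz-1 on the log2 scale was 3.36 for eif-4A3 and 0.37 for eif-2Bbeta. It was -1.91 for eef-2, -0.71 for eef-1A.1, -0.61 for ife-3, -0.57 for eef-1G, -0.57 for eef-1B.1 and -0.38 for iff-2. Of these, eif-4A3, eef-2 and ife-3 kept their call under all 15 alternatives. The call of eif-2Bbeta held in 8 of 15, with values from 0.32 to 0.53, and was lost with only the 2 genotypes compared. The htz-1 larvae were sorted and the lin-35 larvae were not, and the part of sorting in these differences cannot be told apart from genotype. With 2 libraries a group, no library could be tested as an outlier.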

How the results depend on the processing

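With the RPKM as deposited, 2 members were higher and 4 lower in lin-35, 2 higher and 13 lower in htz-1, and 15 higher and 5 lower in lin-35 against htz-1. Of all genes tested 18.4% and 6.12%, 15.5% and 15.2%, and 23.6% and 8.42% were called, in the same order. With quantile normalization the counts were 0 and 1, 1 and 9, and 5 and 2, and the lin-35 values of eef-1G (0.057) and eef-1A.2 (0.20) turned sign without passing the test. Quantile normalization sets every library to the same distribution, and the members' median in lin-35 was then -0.06, against -0.08 for all genes. Without a filter 0 members were higher and 7 lower in lin-35. Without a variance trend 5 were lower in lin-35 and 9 in htz-1. With only the 2 genotypes compared 3 were higher in htz-1 and 1 in lin-35 against htz-1, and limma-voom on recovered reads called 1 higher in htz-1. The pseudocounts changed no count.

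With each library left out in turn, members higher and lower in lin-35 ranged from 0 to 1 and from 3 to 9, in htz-1 from 0 to 3 and from 3 to 15, and in lin-35 against htz-1 from 1 to 3 and from 4 to 7. Where this left a genotype with 1 library, the spread came from the other libraries. The calls kept under all 15 alternatives were eef-2 in lin-35, eif-4A3, eif-2alpha and eif-3.L in htz-1, and eif-4A3, eef-2 and ife-3 between the mutants. The cause of the other changes was not tested.

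The labels number the libraries 1 and 2 in each genotype. Deviations of same-numbered libraries from their group means correlated at 0.32 between N2 and lin-35, 0.10 between N2 and htz-1 and 0.02 between lin-35 and htz-1 over 9679 genes. With 2 pairs this does not establish pairing. With the replicate number as a replicate block, 1 member was higher and 11 lower in lin-35, 2 higher and 15 lower in htz-1, and 3 higher and 7 lower in lin-35 against htz-1. Depth limits ife-5 most, with 71 to 205 reads a library, and eif-4A3 in htz-1, with 71 and 44.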
